A study of Mus musculus with 2 samples.

Results

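Paneth-like cells were taken from 2 droplet libraries of mouse intestinal fibroblasts grown together with crypts, the glands of the small intestine. A cell barcode entered the class when it held at least 300 genes, had at most 20% of its unique molecular identifiers (UMIs, counts of mRNA molecules) from mitochondrial genes, and carried more UMIs of 5 epithelial genes (Epcam, Krt8, Krt18, Krt19, Cldn7) than of 5 fibroblast genes (Col1a1, Col1a2, Col3a1, Sparc, Dcn). In addition, Lyz1, Defa17, Defa24, Ang4 and Itln1 together had to make up at least 0.5% of its UMIs and to outnumber the 6 goblet genes Muc2, Zg16, Fcgbp, Spink4, Agr2 and Tff3. This gate kept 27 barcodes of 1564 in Ptger4-OFF and 31 of 882 in Ptger4-ON, 58 of 2446 in all. The gate genes chose the cells, so their values are given as a description only.

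Both libraries came from small intestine of C57BL6 mice aged 10 weeks, in Organoid Growth Media. Ptger4-OFF co-cultures received ONO-AE3-208, an inhibitor of the prostaglandin E2 receptor Ptger4 (EP4), at 10 µM every second day and grew as budding organoids. Ptger4-ON co-cultures received the DMSO vehicle alone and grew as spheroids. Each library is a single pool of 6 co-cultures with no map from cell to culture, so cells are not replicates and the conditions were compared without a test. Intervals in square brackets are exact 95% intervals that cover counting error only.

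Paneth cells sit at the base of small intestinal crypts and release granules of lysozyme, alpha-defensins and other antimicrobial proteins. In the mouse, the metalloproteinase Mmp7 cuts alpha-defensin precursors into their active forms. Paneth cells also present Wnt3, Egf and the Notch ligand Dll4 to neighbouring stem cells, and they share a secretory progenitor with goblet cells.

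Several barcodes of the class lay 1 base from a deeper barcode and may not be independent cells, which was not tested. In Ptger4-ON, 1 barcode held 130922 UMIs, 51.9% of all UMIs of the class, with only 1.91% of its UMIs from the gate genes and 1.57% from the goblet genes. A further 5 barcodes of the class differed from it by 1 substitution, and 3 more lay 1 substitution from a barcode of 103285 UMIs that itself missed the gate, with 0.916% Paneth and 0.985% goblet UMIs. The first family is shown because it carries 54.4% of the Ptger4-ON UMIs of the class, with the substituted base in capitals.
deepest barcode: agtgttgtcaac
satellite with 1422 UMIs: agtgttgtcaCc
satellite with 1377 UMIs: agtCttgtcaac
satellite with 1357 UMIs: aCtgttgtcaac
satellite with 1335 UMIs: agtgttCtcaac
satellite with 816 UMIs: Cgtgttgtcaac
The gate genes made up between 1.62% and 2.51% of UMIs in these 5 satellites. Another kind of pair ended in N and lacked 1 base of a deeper barcode, once in each library. These pairs are shown with the missing base of the deeper barcode, and the terminal N, in capitals.
Ptger4-OFF, 1693 UMIs: ttttCtctctga
Ptger4-OFF, 965 UMIs: tttttctctgaN
Ptger4-ON, 2505 UMIs: ctgaaTgaattg
Ptger4-ON, 1528 UMIs: ctgaagaattgN
OFF/ON ratios of genes are therefore given over all 27 and 31 barcodes and over distinct barcodes. The distinct set leaves out the lesser barcode of each such pair and barcodes over 50000 UMIs, a choice made after the values were seen, and holds 26 barcodes in Ptger4-OFF and 21 in Ptger4-ON. The libraries shared 1 barcode sequence. Scrublet called 4 and 6 doublets in Ptger4-OFF and Ptger4-ON, none of them Paneth-like, and doublets were kept.

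**Figure D1:**
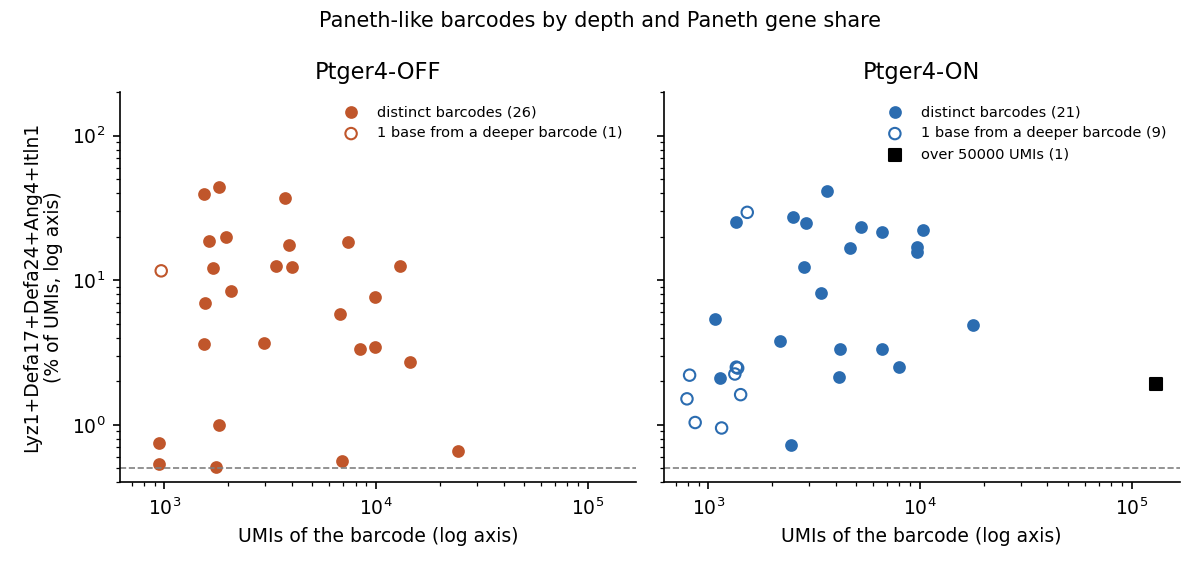
Share of UMIs from the 5 Paneth gate genes (y, log axis) against the UMIs of each Paneth-like barcode (x, log axis), Ptger4-OFF at left and Ptger4-ON at right; each point is 1 barcode and the dashed line is the 0.5% minimum. The single barcode over 50000 UMIs is in Ptger4-ON, and 9 open Ptger4-ON points, against 1 in Ptger4-OFF, lie 1 base from a deeper barcode.

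The Paneth-like class held 139097 UMIs in Ptger4-OFF and 252234 in Ptger4-ON over all barcodes, and 138132 and 110661 UMIs over distinct barcodes. Median depth was 2967 UMIs in Ptger4-OFF and 2845 in Ptger4-ON, and mitochondrial UMIs had medians of 2.04% and 1.73%, against 3.33% and 2.36% in the other epithelial cells of the same libraries. Fibroblast gate genes summed to 14 UMIs in Ptger4-OFF and 13 in Ptger4-ON over the class. The leukocyte list summed to 2 UMIs in each library, the endothelial list to 0 in each and the tuft list to 0 and 2, so no member of these lists was measured.

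Paneth-like cells made up 2.25% [1.49 to 3.26] of 1199 epithelial cells in Ptger4-OFF and 5.31% [3.63 to 7.45] of 584 in Ptger4-ON. Over distinct barcodes the share was 2.27% [1.49 to 3.31] in Ptger4-OFF and 4.29% [2.68 to 6.49] in Ptger4-ON. A further 30 epithelial barcodes in Ptger4-OFF and 33 in Ptger4-ON reached the 0.5% minimum but had at least as many goblet UMIs. Just inside the minimum lay barcodes with 0.511% in Ptger4-OFF and 0.730% in Ptger4-ON, and just outside it barcodes with 0.435% in Ptger4-OFF and 0.464% in Ptger4-ON.

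The gate genes encode lysozyme (Lyz1), alpha-defensins (Defa17, Defa24), an antimicrobial ribonuclease (Ang4) and a lectin that binds microbial sugars (Itln1). Together they took between 0.511% and 44.1% of a barcode's UMIs in Ptger4-OFF, with a median of 7.64%, and between 0.730% and 41.4% in Ptger4-ON, with a median of 3.797%. Over distinct barcodes the medians were 7.30% in Ptger4-OFF and 12.3% in Ptger4-ON, so the order of the libraries depends on the barcodes counted. All 5 gate genes were detected in 19 of 27 barcodes in Ptger4-OFF and 14 of 31 in Ptger4-ON, and 1 barcode in each library had no UMI of Lyz1, Defa17 or Defa24. Among 357 and 290 distinct non-epithelial barcodes of Ptger4-OFF and Ptger4-ON, the gate genes made up 0.0158% and 0.0796% of UMIs, far under the gate minimum. In Ptger4-ON, 1 non-epithelial barcode held 1070 of these 1447 UMIs.

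Among the gate genes, lysozyme and Defa17 were lower, and Ang4 and Itln1 higher, in Ptger4-OFF than in Ptger4-ON under both sets of barcodes, whereas Defa24 was lower in Ptger4-OFF over distinct barcodes and slightly higher over all. In counts per 1000000 UMIs of the class (CPM), Defa24 had 49380.3 CPM in Ptger4-OFF and 87339 CPM in Ptger4-ON over distinct barcodes, against 49282 and 46604 CPM over all. Over distinct barcodes Defa17 had 8876 CPM in Ptger4-OFF and 19763 CPM in Ptger4-ON. Lyz1 had 4134 CPM in Ptger4-OFF and 11124 CPM in Ptger4-ON. Ang4 ran the other way, with 4771 CPM in Ptger4-OFF and 2521 CPM in Ptger4-ON, and Itln1 had 13277 and 10455 CPM. Per 100 Defa24 UMIs, Ptger4-OFF distinct barcodes held 9.66 Ang4 and 26.9 Itln1 UMIs, against 2.89 and 11.97 in Ptger4-ON. Over all barcodes the same ratios were 9.79 and 26.96 in Ptger4-OFF and 2.93 and 13.6 in Ptger4-ON. The distinct set drops only 1 Ptger4-OFF barcode of the class, so the Ptger4-OFF ratios could hardly move. Within that set, 1 Ptger4-OFF barcode held 217 of 659 Ang4 and 488 of 1834 Itln1 UMIs, but 720 of 6821 Defa24 UMIs.

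Mmp7, a Paneth marker that the gate did not use, had a higher level in Paneth-like than in other epithelial cells of both libraries. Mmp7 (chr9:7692090-7699585, plus strand, GRCm38) had 1015 UMIs and 7297 CPM in Ptger4-OFF and 1680 UMIs and 6660 CPM in Ptger4-ON, against 389 and 1097 CPM in the other epithelial cells. It was detected in 24 of 27 barcodes in Ptger4-OFF and 30 of 31 in Ptger4-ON. After thinning each barcode to 1000 UMIs, Mmp7 was seen in 91.7% [73.0 to 98.97] of 24 distinct barcodes in Ptger4-OFF and 90.5% [69.6 to 98.8] of 21 in Ptger4-ON, where 2.601% and 4.198% of non-epithelial barcodes had it. Mmp7 was not particular to the class, since 15.57% of other epithelial distinct barcodes in Ptger4-OFF and 32.5% in Ptger4-ON had it after thinning. Over all barcodes, the class held 25.9% of the epithelial Mmp7 UMIs in Ptger4-OFF and 22.4% in Ptger4-ON. Over distinct barcodes the OFF/ON ratio of Mmp7 was 0.72 [0.66 to 0.78], from 7247 CPM in Ptger4-OFF and 10085 CPM in Ptger4-ON, and over all barcodes it was 1.10 [1.01 to 1.18].

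Goblet genes were present in most of these cells, which the gate allowed. The 6 goblet gate genes made up at least 0.5% of UMIs in 22 of 27 barcodes in Ptger4-OFF and 29 of 31 in Ptger4-ON, and the median ratio of goblet to Paneth UMIs was 0.339 in Ptger4-OFF and 0.531 in Ptger4-ON. Spink4 was detected in 23 barcodes in Ptger4-OFF and 28 in Ptger4-ON, and Tff3, a trefoil peptide of mucus, in 24 and 29. Zg16, a lectin of goblet granules, was detected in 5 barcodes in Ptger4-OFF and 3 in Ptger4-ON. Of the goblet genes outside the gate, 11 of 23 were measured over distinct barcodes and their median log2 OFF/ON was -0.77, beside 0.18 for all 2277 genes. Of these 11, 0 were at least 2-fold higher and 4 at least 2-fold lower in Ptger4-OFF, against 9.05% and 4.48% of all genes. Over all barcodes the median of 12 measured members was -0.11, beside 0.02 for all genes. There, 1 was at least 2-fold higher and 1 at least 2-fold lower, against 4.29% and 6.9% of all genes. Between these sets, the shift was seen over distinct barcodes only. A measured gene had at least 20 UMIs over both libraries. Of the 4 lower over distinct barcodes, Ramp1 reached 20 UMIs in Ptger4-ON alone, so the minimum selected for its direction. Of 6 members that reached 20 UMIs in Ptger4-OFF, 2 were at least 2-fold lower there. Over all barcodes, the 1 higher member reached 20 UMIs in Ptger4-OFF alone and the 1 lower, Ramp1, in Ptger4-ON alone.

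**Figure D2:**
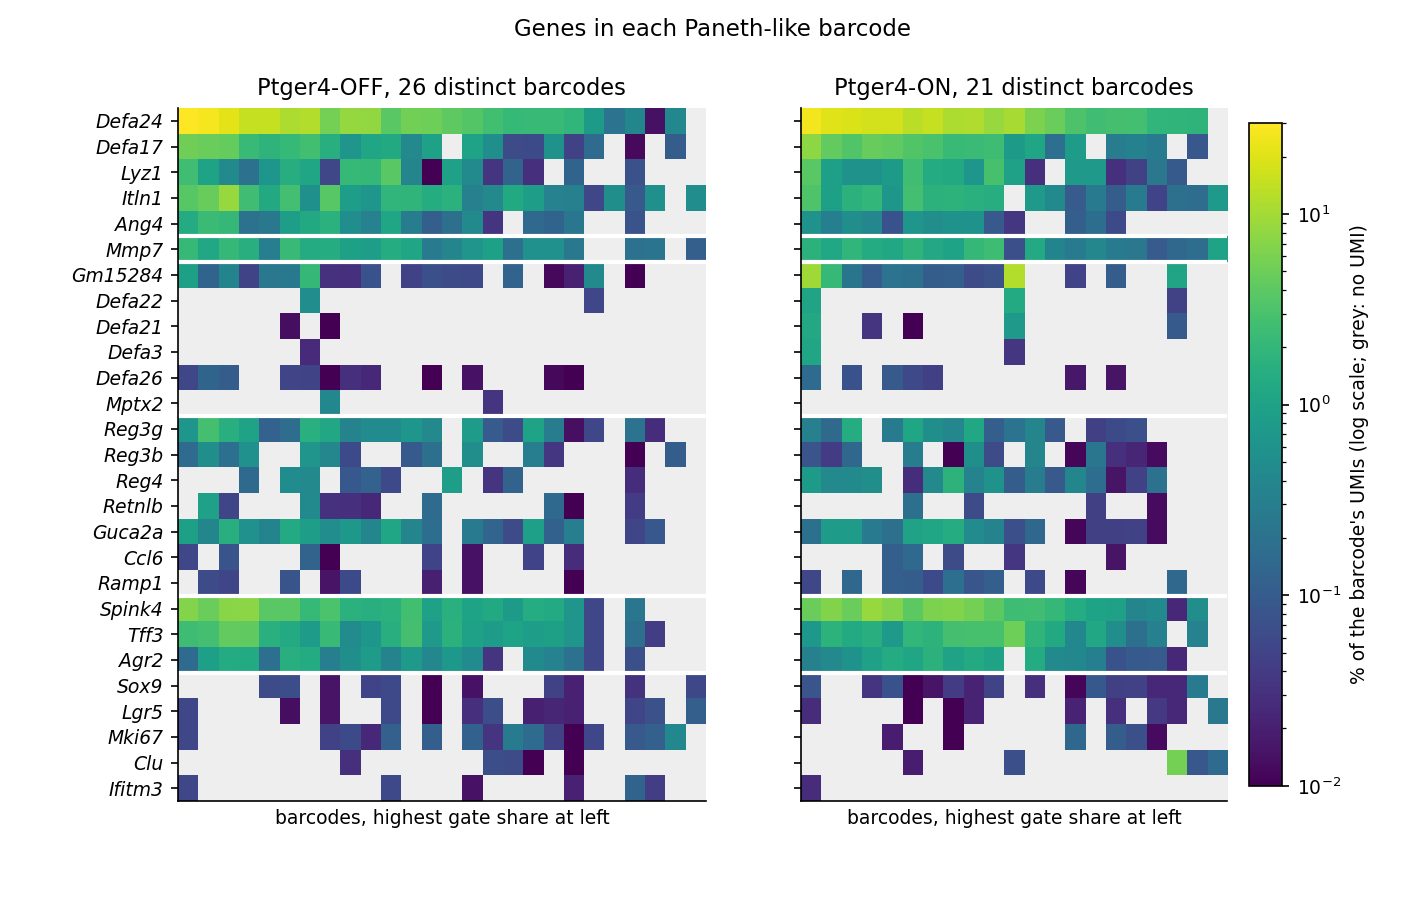
Percent of a barcode's UMIs (colour, log scale, grey for no UMI) from each gene (rows, the 5 gate genes on top) in each distinct Paneth-like barcode (columns, highest gate share at left), Ptger4-OFF at left and Ptger4-ON at right. Mmp7, Spink4 and Tff3 fill most columns, whereas Defa21, Defa22, Defa3 and Mptx2 are filled in few columns.

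Across all barcodes, 74 of 3520 measured genes (2.1%, at least 20 UMIs in the class over both libraries) were at least 2-fold higher in Paneth-like than in other epithelial cells in each library, and over distinct barcodes 78 of 2277 (3.43%). The cells were picked from the same counts, so this is a description. Beyond the gate, the 24 genes with the largest excess in the library where it was smaller included Defa26, Defa22, Retnlb, Clps, Defa3, Sval1, Ccl6, Ern2, Ccl9, Reg4, Reg3g, Ramp1, Tpsg1, Guca2a, Wnt3, Mmp7, Reg3b and Spdef. Defa3 is on that list with 1 UMI in Ptger4-OFF and 41 in Ptger4-ON. Guca2a, the precursor of the gut hormone guanylin, was 36.6-fold higher in Ptger4-OFF and 8.34-fold higher in Ptger4-ON than in other epithelial cells, and Reg3g, an antibacterial lectin, was 18.6-fold and 11.9-fold higher. Ern2, an endoplasmic reticulum stress sensor of mucus-producing cells, was 32.2-fold and 17.5-fold higher. These genes were not particular to the class. Over all barcodes it held 40.5% of the epithelial Guca2a UMIs in Ptger4-OFF and 28.4% in Ptger4-ON, and 42.6% and 39.7% of the Reg4 UMIs. The other epithelial cells include barcodes rich in goblet genes, which were not compared apart.

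Of 4 measured niche ligands (Wnt3, Areg, Btc and Hbegf), Wnt3 alone lay above other epithelial cells in both libraries. Wnt3 had 15 UMIs in Ptger4-OFF and 14 in Ptger4-ON over the class, 18.7-fold and 7.003-fold above other epithelial cells, and its OFF/ON ratio was 1.94 [0.87 to 4.34] over all and 1.12 [0.46 to 2.82] over distinct barcodes. Spdef, a transcription factor of Paneth and goblet maturation, had 12 and 15 UMIs, 27.97-fold and 4.78-fold above other epithelial cells. Sox9, which Paneth cell formation requires in the mouse, was 1.70-fold and 1.19-fold above them. Egf, Dll4, Atoh1, Lyz2 and the targeted receptor Ptger4 had under 20 UMIs over both libraries and were not compared.

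**Figure D3:**
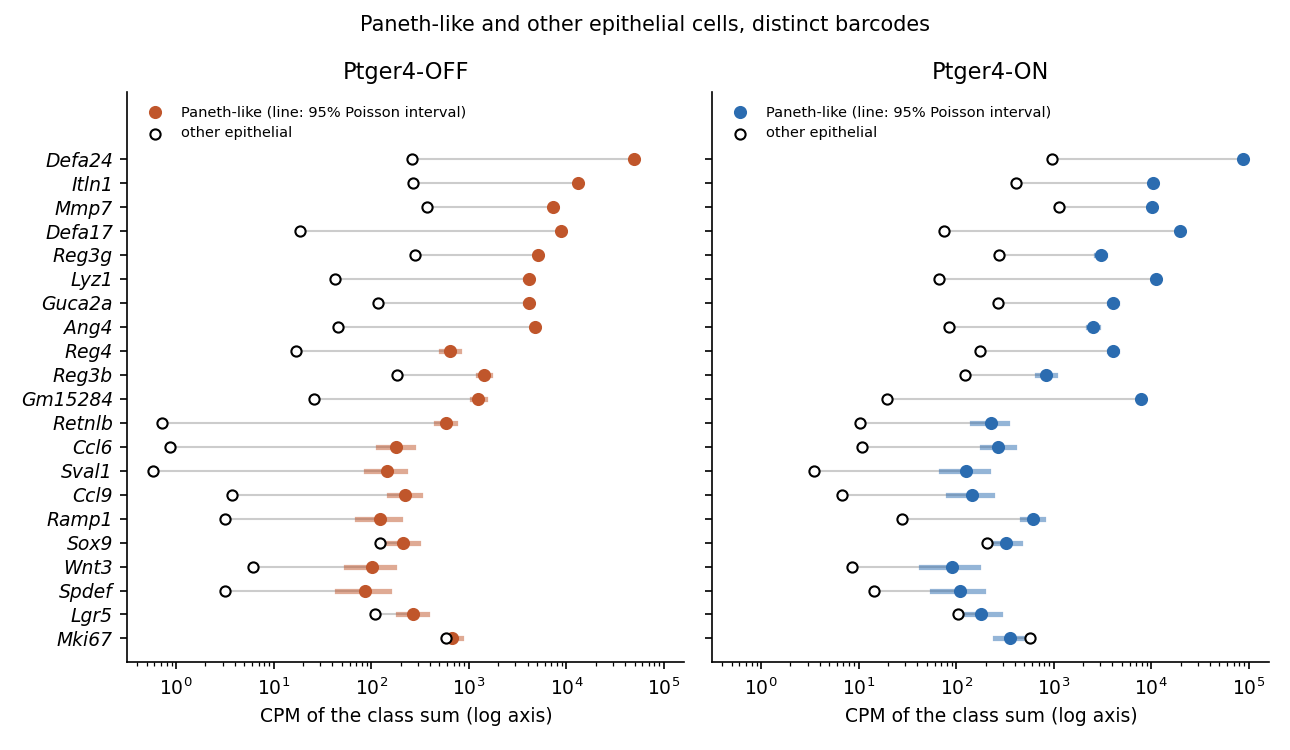
CPM (x, log axis) of gate genes and further genes (rows) in Paneth-like cells (filled, line for the 95% Poisson interval) and in other epithelial cells (open), distinct barcodes, Ptger4-OFF at left and Ptger4-ON at right. Filled points lie to the right of open points for all genes drawn except Mki67 in Ptger4-ON, with 352 CPM in Paneth-like and 574 CPM in other epithelial cells.

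Most alpha-defensins measured outside the gate had fewer UMIs in Ptger4-OFF, and a few barcodes carried them. Of 41 listed members 8 were measured, and over distinct barcodes 6 of the 8 were at least 2-fold lower in Ptger4-OFF, where 4.48% of all measured genes were, and 0 were at least 2-fold higher, where 9.05% were. Their median log2 OFF/ON was -2.43, beside 0.18 for all genes. Over all barcodes 5 of the 8 were at least 2-fold lower, where 6.9% of genes were, with a median of -1.28 beside 0.02. Of the 6, Defa21, Defa3 and Gm14851 reached the minimum of 20 UMIs in Ptger4-ON alone, so the minimum itself selected for that direction, and the count and median lend it no support. Only Gm15284, Defa22 and Defa26 reached 20 UMIs in Ptger4-OFF, and 2 of these 3 were at least 2-fold lower there in each set. The list was written with lower alpha-defensin levels in Ptger4-OFF epithelium already known, so the count is no independent evidence of direction.

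Gm15284, which RefSeq names Defa30, had 173 UMIs in Ptger4-OFF and 915 in Ptger4-ON. Its OFF/ON ratio was 0.34 [0.29 to 0.40] over all and 0.16 [0.13 to 0.19] over distinct barcodes. In Ptger4-ON, 2 barcodes held 348 and 342 of its UMIs, beside 943 and 299 Defa24 UMIs, and in Ptger4-OFF 1 barcode held 80, beside 461. After thinning to 1000 UMIs, Gm15284 was seen in 12 of 24 distinct barcodes in Ptger4-OFF [29.1% to 70.9%] and 11 of 21 in Ptger4-ON [29.8% to 74.3%], against 0.867% and 3.82% of non-epithelial barcodes.

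Most UMIs of Defa21, Defa22 and Defa3 sat in those same barcodes. Defa21 had 2 UMIs in Ptger4-OFF and 73 in Ptger4-ON, of which 46 and 21 lay in the 2 Ptger4-ON barcodes rich in Gm15284. Defa22 had 21 UMIs in Ptger4-OFF, 20 of them in the 1 barcode with 80 Gm15284 UMIs, and 79 in Ptger4-ON, 39 and 38 of them in those 2 barcodes. Defa3 had 1 UMI in Ptger4-OFF and 41 in Ptger4-ON, 40 of them in 1 barcode. Defa26 was spread wider, over 12 barcodes in Ptger4-OFF and 8 in Ptger4-ON, and had an OFF/ON ratio of 1.30 [0.69 to 2.38] over all and 0.64 [0.34 to 1.20] over distinct barcodes. The culture of origin of these barcodes is not known.

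Some of these genes on chromosome 8 are near-identical copies, so reads may be split between them. In GENCODE transcripts, Defa17 and Defa3 agreed at 99.7% of 397 aligned bases, Defa24 and Defa30 at 98.2% of 397, and Defa21 and Defa22 at 99.5% of 418, while Defa24 and Defa21 agreed at 83.6% of 414. The values of Defa3 beside Defa17, of Gm15284 beside Defa24, and of Defa21 beside Defa22 are therefore uncertain. The RefSeq promoter windows (GRCm38.p6, 250 bases before to 50 after each start) of Defa21 and Defa22 differed at 0 of 300 bases. A stretch of each is shown since both genes appeared in the same Ptger4-ON barcodes, though no Ptger4-OFF barcode of the class held both. Capitals mark the letters TCAAAG.
Defa21, chr8:21025395-21025494, plus strand: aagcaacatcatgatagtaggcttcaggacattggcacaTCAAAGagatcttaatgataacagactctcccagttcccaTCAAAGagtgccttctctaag
Defa22, chr8:21162127-21162226, plus strand: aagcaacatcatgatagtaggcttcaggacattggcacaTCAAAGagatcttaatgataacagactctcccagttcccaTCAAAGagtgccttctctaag
The motif searched was CTTTGA on either strand (TCAAAG on the other, with no overlap between matches here), the core bound by TCF/LEF factors of the Wnt pathway. It occurred in 16.0% of the 32851 promoter windows, and at 2 or more places in 1.73%. Defa21 and Defa22 held it at 2 places each and Defa30 at 1. The 2 windows of Mmp7 overlap and held it at the same 1 place. The windows of Defa38, Lyz1, Ang4 and Itln1 held it at 0 places. Of 14 Paneth genes searched, 8 had a window. A match is a description of letters, not a binding site.

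Other Paneth products had a median near that of all genes. Of 26 listed members 11 were measured, with a median log2 OFF/ON of 0.13 over all and 0.03 over distinct barcodes, beside 0.02 and 0.18 for all genes. Over distinct barcodes 2 were at least 2-fold higher and 3 at least 2-fold lower in Ptger4-OFF, where 9.05% and 4.48% of all genes were. Over all barcodes the counts were 2 higher and 1 lower, where 4.29% and 6.9% of all genes were. Single members differed widely, as the following values show.

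Reg4, a lectin of secretory gut cells, was lower in Ptger4-OFF under both sets of barcodes. Reg4 (chr3:98222156-98236748, plus strand, GRCm38) had 89 UMIs in 10 barcodes in Ptger4-OFF and 475 UMIs in 20 barcodes in Ptger4-ON. The OFF/ON ratio was 0.34 [0.27 to 0.43] over all barcodes and 0.16 [0.13 to 0.20] over distinct barcodes, with 644 CPM in Ptger4-OFF and 4039 CPM in Ptger4-ON. After thinning, Reg4 was seen in 25.0% [9.77 to 46.7] of distinct barcodes in Ptger4-OFF and 71.4% [47.8 to 88.7] in Ptger4-ON, where 0.289% and 1.53% of non-epithelial barcodes had it. One Ptger4-ON barcode held 171 UMIs, and 9 barcodes made up 90% of the Ptger4-ON total.

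Reg4 was also lower in the other epithelial cells of Ptger4-OFF, at 16.1 CPM against 136 CPM in Ptger4-ON over all barcodes, where the class sums differ in the same direction as in Paneth-like cells. Ramp1, a subunit of the receptor for the neuropeptide CGRP, had 18 UMIs in Ptger4-OFF and 75 in Ptger4-ON, with an OFF/ON ratio of 0.44 [0.24 to 0.74] over all and 0.20 [0.11 to 0.34] over distinct barcodes. Ramp1 had 3.22 CPM in the other epithelial cells of Ptger4-OFF and 25.3 CPM in those of Ptger4-ON. Barcodes rich in goblet genes numbered 69 among the 1172 other epithelial cells of Ptger4-OFF and 81 among the 553 of Ptger4-ON. The class sums of Reg4 and Ramp1 may differ with that make-up. A difference among other epithelial cells of the same kind was not tested.

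The Reg3 lectins lay the other way. Reg3g had 5104 CPM in Ptger4-OFF and 3271 CPM in Ptger4-ON over all barcodes, and the OFF/ON ratio was 1.56 [1.41 to 1.73] over all and 1.67 [1.47 to 1.91] over distinct barcodes. The deepest Ptger4-ON barcode held 464 of the 825 Reg3g UMIs of Ptger4-ON. After thinning, Reg3g was seen in 70.8% [48.9 to 87.4] of distinct barcodes in Ptger4-OFF and 61.9% [38.4 to 81.9] in Ptger4-ON, intervals that overlap widely. Reg3g in the other epithelial cells was 274 CPM in Ptger4-OFF and 275 CPM in Ptger4-ON. Reg3b had 1438 CPM in Ptger4-OFF and 535 CPM in Ptger4-ON over all barcodes, a ratio of 2.69 [2.15 to 3.37]. Over distinct barcodes Reg3b had 1448 and 840.4 CPM, a ratio of 1.72 [1.34 to 2.23]. Guca2a had 4112 CPM in Ptger4-OFF and 4039 CPM in Ptger4-ON distinct barcodes, a ratio of 1.02 [0.90 to 1.15], though over all barcodes the ratio was 1.75 [1.56 to 1.97].

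Single barcodes decided the values of 2 further products. Mptx2, a pentraxin of Paneth cells in the mouse, had 56 UMIs in Ptger4-OFF, 55 of them in 1 barcode, and 0 in Ptger4-ON. Against a floor of 3 counts over the class, Mptx2 was at least 33.8-fold higher in Ptger4-OFF over all and at least 14.95-fold higher over distinct barcodes. Retnlb, a resistin-like antimicrobial protein, had 81 UMIs in 10 barcodes in Ptger4-OFF and 136 in Ptger4-ON, 106 of them in the deepest barcode, so its OFF/ON ratio was 1.08 [0.81 to 1.43] over all and 2.596 [1.64 to 4.24] over distinct barcodes. The chemokine gene Ccl9 had an OFF/ON ratio of 2.96 [1.62 to 5.54] over all and 1.55 [0.82 to 3.04] over distinct barcodes. For Ccl6 the ratios were 0.87 [0.52 to 1.43] and 0.67 [0.38 to 1.17].

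**Figure D4:**
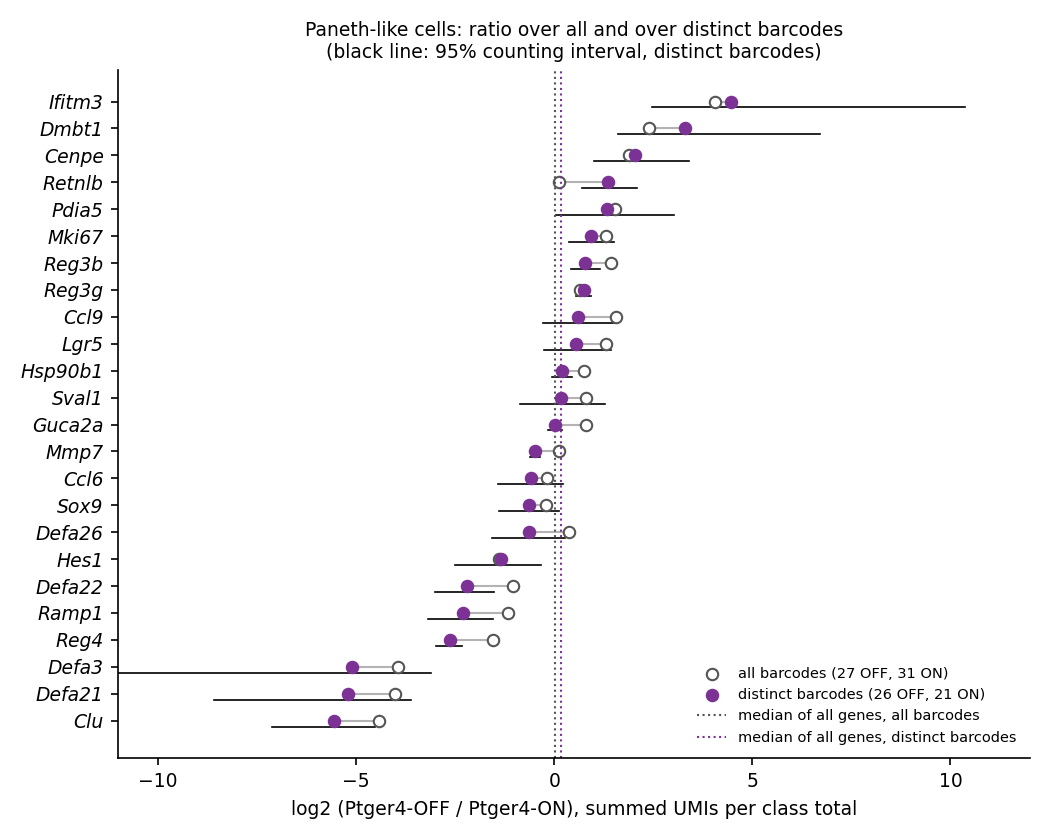
log2 OFF/ON (x) of 24 genes (rows) in Paneth-like cells over all barcodes (open) and over distinct barcodes (filled, black line for the 95% counting interval); dotted lines mark the median of all genes. Reg4, Ramp1, Defa21, Defa3 and Clu lie at the left under both sets, and Retnlb lies at 0.11 over all and at 1.36 over distinct barcodes.

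Fetal-like and regenerative genes, which mark spheroid growth of intestinal epithelium, depended on the deepest barcode. Over all barcodes 16 of 19 measured members were at least 2-fold lower in Ptger4-OFF, where 6.9% of all genes were, and their median log2 OFF/ON was -1.77, beside 0.02 for all genes. Of these 16, 11 reached 20 UMIs in Ptger4-ON alone, among them Anxa10, Msln and Il1rn with 0 UMIs in Ptger4-OFF, so the minimum selected for that direction and the count lends it no support. The 5 members with at least 20 UMIs in Ptger4-OFF were all at least 2-fold lower there. Over distinct barcodes 3 of 9 were at least 2-fold lower, where 4.48% of all genes were, and the median was -0.63, beside 0.18 for all genes. Of those 3, Clu reached 20 UMIs in Ptger4-ON alone. Ly6a had 6 UMIs in Ptger4-OFF and 137 in Ptger4-ON, of which 130 lay in the deepest barcode. Clu, a secreted chaperone, had 6 UMIs in Ptger4-OFF and 254 in Ptger4-ON, of which 236 lay in 1 other barcode that also held 45 Gm15284 UMIs and had 2.15% gate UMIs. Among the 12 lowest OFF/ON ratios of genes with at least 100 CPM in either library, 9 had 0.5 or more of their Ptger4-ON UMIs in the deepest barcode.

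G2/M genes of the cell cycle had a median OFF/ON above that of all genes in Paneth-like cells. Over all barcodes they summed to 3796 CPM in Ptger4-OFF and 1998 CPM in Ptger4-ON Paneth-like cells. The other epithelial cells had 4017 and 4190 CPM, so the Ptger4-OFF class did not lie above them. Of 15 measured G2/M genes 6 were at least 2-fold higher in Ptger4-OFF, where 4.29% of genes were, and 0 at least 2-fold lower, where 6.9% were, with a median log2 OFF/ON of 0.70 beside 0.02. Over distinct barcodes 4 of 12 were at least 2-fold higher, where 9.05% of all genes were, and the median was 0.90 beside 0.18. Of those 12, 4 reached 20 UMIs in Ptger4-OFF alone, 2 of them at least 2-fold higher, and 0 in Ptger4-ON alone. The minimum thus selected for that direction over distinct barcodes, and the count and median there lend it no support. Of 3 members that reached 20 UMIs in Ptger4-ON over distinct barcodes, 0 were at least 2-fold higher. Over all barcodes 0 members reached it in Ptger4-OFF alone and 2 in Ptger4-ON alone. The G1/S list had a median of 0.27 over 14 members across all barcodes, with 0 of them at least 2-fold higher and 0 at least 2-fold lower. Over distinct barcodes its median was 1.21 over 6 members, of which 4 were at least 2-fold higher. All 4 reached 20 UMIs in Ptger4-OFF alone, so the minimum selected for that direction. Mki67, a proliferation marker, had 94 UMIs in 17 barcodes in Ptger4-OFF and 69 UMIs in 10 barcodes in Ptger4-ON, and its OFF/ON ratio was 2.47 [1.79 to 3.42] over all and 1.91 [1.30 to 2.85] over distinct barcodes. After thinning, Mki67 was seen in 29.2% [12.6 to 51.1] of distinct barcodes in Ptger4-OFF and 9.52% [1.17 to 30.4] in Ptger4-ON. In the other epithelial distinct barcodes it was seen in 32.3% and 36.4%. The deepest Ptger4-OFF barcode held 17.6% of the Ptger4-OFF UMIs of the class, with only 0.655% gate UMIs, and is in both sets. It carried 121 of the 528 G2/M UMIs and 23 of the 94 Mki67 UMIs of Ptger4-OFF. The deepest Ptger4-ON barcode carried 222 of the 504 G2/M UMIs and 24 of the 69 Mki67 UMIs of Ptger4-ON. Over distinct barcodes, 1 Ptger4-ON barcode held 114 of the 242 G2/M UMIs of Ptger4-ON, and 26 Mki67 UMIs. Without the deepest Paneth-like barcode of each library, the G2/M median was 0.60 over 12 members, beside 0.10 for all genes.

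Within the class, G2/M genes took a larger share of UMIs where the gate share was low. The gate share is a range, and it was split at 5% after the values were seen, with 1 barcode in Ptger4-OFF and 2 in Ptger4-ON between 4% and 6%. The same share chose the cells, so the split is a description only. In Ptger4-OFF distinct barcodes, G2/M genes made up a median of 0.118% of UMIs in the 15 barcodes with at least 5% and 0.496% in the 11 below. In Ptger4-ON the medians were 0% in 13 barcodes and 0.284% in 8. Mmp7 ran the other way, with medians of 1.17% and 0.201% in Ptger4-OFF and 1.32% and 0.253% in Ptger4-ON. Lgr5, a stem cell receptor, was detected in 13 of 27 barcodes in Ptger4-OFF and 10 of 31 in Ptger4-ON. After thinning, Lgr5 was seen in 12.5% [2.66 to 32.4] of 24 distinct barcodes in Ptger4-OFF and 14.3% [3.05 to 36.3] of 21 in Ptger4-ON. The OFF/ON ratio of Lgr5 was 2.48 [1.47 to 4.24] over all and 1.48 [0.84 to 2.70] over distinct barcodes. Its direction turned, to a log2 of -0.16, where the gate genes had to reach 2 times the goblet genes. In Ptger4-OFF, 13 of 37 Lgr5 UMIs lay in 1 barcode with 0.655% gate UMIs. In Ptger4-ON, the deepest barcode held 7 of 27.

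The medians of other gene groups moved with the barcodes counted, beside 0.02 over all and 0.18 over distinct barcodes for all genes. Genes of endoplasmic reticulum folding, the machinery behind heavy secretion, had a median log2 OFF/ON of 0.26 over all and -0.09 over distinct barcodes, with 1 of 19 at least 2-fold higher in each set, where 4.29% and 9.05% of all genes were, and 0 and 1 lower, where 6.9% and 4.48% were. Secretory lineage factors had medians of -0.13 and -0.77, and over distinct barcodes 3 of 7 measured members, Hes1, Foxa1 and Klf4, were at least 2-fold lower in Ptger4-OFF, where 4.48% of all genes were. Of these, Hes1 and Klf4 reached 20 UMIs in Ptger4-ON alone. Over all barcodes 1 of 9 was lower. Hes1, a Notch target that opposes secretory fate, had 12 UMIs in Ptger4-OFF and 25 in Ptger4-ON distinct barcodes, a ratio of 0.38 [0.18 to 0.79], and over all barcodes the ratio was 0.37 [0.18 to 0.69]. Mitochondrially encoded genes had medians of -0.06 and 0.50, and nuclear genes of oxidative phosphorylation 0.02 and 0.39.

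**Figure D5:**
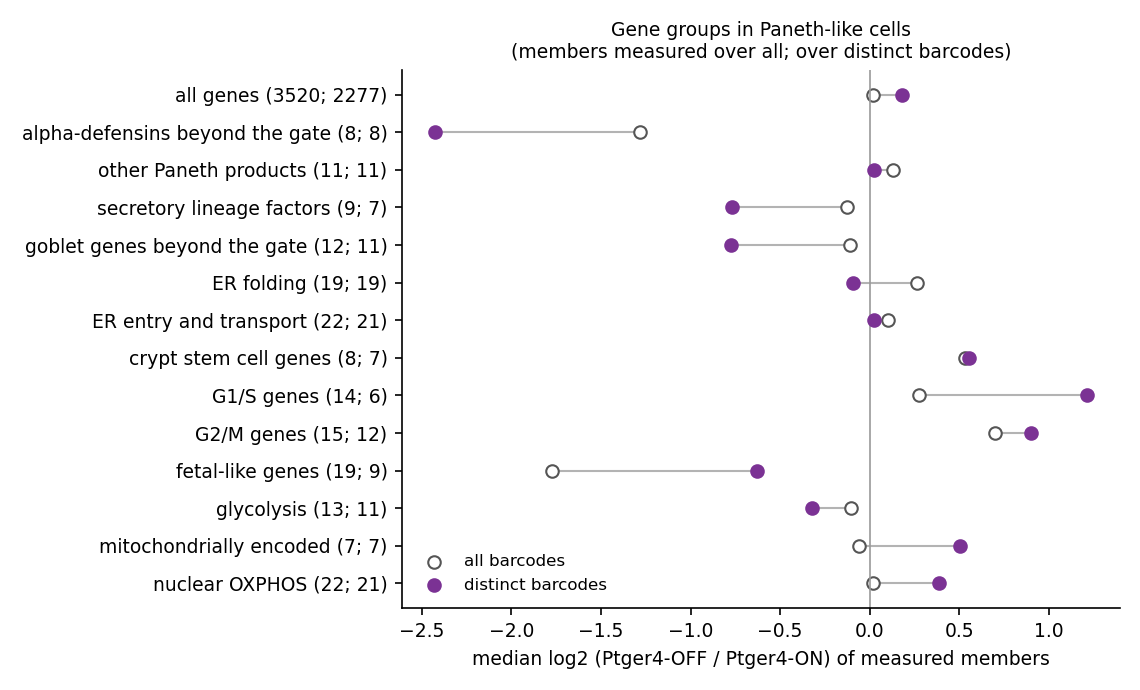
Median log2 OFF/ON (x) of the measured members of 13 gene groups and of all genes (rows) in Paneth-like cells, over all barcodes (open) and over distinct barcodes (filled), with the members measured in each set in parentheses. Alpha-defensins beyond the gate lie at the left in both sets, G2/M genes at the right, and fetal-like genes lie at -1.77 over all and at -0.63 over distinct barcodes.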

How the data were processed

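Drop-seq, a droplet method that tags mRNA 3′ ends with cell and molecule barcodes, was run on 2 pools of co-cultures. Per the labels, trypsin and EDTA released the cells. STAR 2.6 and build mm10 appear in the submitters' processing notes, and neither annotation nor counter is stated in the sources. The authors deposited unnormalized whole-number counts for each gene in each barcode, read here as UMIs because of the protocol. Deposited totals were 9490205 counts in 1599 barcodes (Ptger4-OFF) and 7408303 in 908 (Ptger4-ON).

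For each class, a gene's UMIs were added over barcodes and divided by the class total (CPM, scaled to 1000000). Intervals are exact Poisson for CPM, conditional binomial for ratios and Clopper-Pearson for shares. A gene needed 20 UMIs over both libraries, log2 values added 0.5 to each count, and called means 2-fold. Named genes were the gate genes, the 24 with the largest lower library ratio against other epithelial cells, the 12 largest and 12 smallest OFF/ON ratios at 100 CPM or more, up to 4 members per list by size of ratio, and 11 fixed genes. Some are not printed. Gm15284, outside that rule by its name, was chosen after its values were seen. The members and the 29 gene lists were chosen with earlier results of these data known. The computation was tested on simulated data. Python 3.11.15, pandas 2.3.3, scipy 1.17.1, scanpy 1.11.5, edgeR 4.0.16 (TMM factors only) and R 4.3.3 were used. GENCODE gave positions and transcripts and RefSeq promoters, on GRCm38.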

Additional observations from a re-analysis of the deposited data

Results flagged for a closer look

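One Ptger4-ON barcode outside the epithelial gate had 37.5% of its 2851 UMIs from the Paneth gate genes. It held 3 epithelial and 4 fibroblast gate UMIs, and a barcode needed more epithelial than fibroblast UMIs to enter the class. The next highest share among the 298 non-epithelial barcodes of that library was 5.31%, and the median was 0%. It carried 592 Defa24, 251 Lyz1, 180 Gm15284, 59 Defa22, 43 Defa21, 41 Mmp7 and 140 Spink4 UMIs. Like the 2 Ptger4-ON barcodes of the class rich in Gm15284, it held Defa21 and Defa22 together. The values of Paneth-like cells do not include it, and those of non-epithelial barcodes do.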

How the results depend on the processing

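No paired analysis was possible because each condition is 1 library. Paneth-like shares and the directions of the alpha-defensin (lower in Ptger4-OFF), G2/M (higher) and fetal-like (lower) medians kept their order between libraries under the settings tried, while sizes moved. Every setting kept a minimum of UMIs per gene, which selected for the alpha-defensin and fetal-like direction. For these lists the repeated direction of the median therefore lends it no support. Over distinct barcodes the minimum also selected for the G2/M direction, since 4 of 12 measured members reached it in Ptger4-OFF alone. All settings drew on the same 2 libraries, so a repeated direction is not independent evidence for any list. In the following, values are the share of epithelial cells or median log2 OFF/ON, and counts are genes at least 2-fold apart, 151 higher and 243 lower in Ptger4-OFF as reported. With a gate minimum of 0.25%, the Ptger4-OFF share was 3.42%, alpha-defensins -1.71, other Paneth products -0.27, the opposite sign to the reported 0.13, G2/M 1.62 and fetal-like genes -1.41. With a minimum of 1%, the 3 lists were alpha-defensins -0.93, other products 0.48 and fetal-like -1.52. With gate genes at 2 times the goblet genes, the Ptger4-ON share was 2.57%, other products 0.58, G2/M 0.23, fetal-like -1.01, and counts 75 higher and 69 lower. Without barcodes over 50000 UMIs, alpha-defensins were -2.33, fetal-like -0.70 and 94 genes lower. Without the deepest Paneth-like barcode of each library, alpha-defensins were -2.05, other products 0.38, fetal-like -0.63 and 88 genes lower. Over distinct barcodes, alpha-defensins were -2.43, other products 0.025, G2/M 0.90, fetal-like -0.63 and 102 genes lower. With equal weight for each cell, alpha-defensins were -2.08, other products 0.80, G2/M 0.38, and counts 471 higher and 417 lower. TMM factors gave other products 0.053. With 10 UMIs per gene, alpha-defensins were -1.03 and counts 433 higher and 517 lower, and with 50 UMIs alpha-defensins were -1.54, G2/M 1.20, and counts 30 higher and 64 lower, where more or fewer genes were measured by construction. Of single genes, Ly6a, Prap1 and Gsta1 turned from lower to higher in Ptger4-OFF under 2 settings, on few UMIs. With 2 times the goblet genes the values were 1.23 (5 UMIs in Ptger4-OFF, 2 in Ptger4-ON), 1.03 (10 and 5) and 0.10 (1 and 1). Over distinct barcodes they were 1.06 (6 and 2), 0.74 (11 and 5) and 0.42 (2 and 1). These counts lie under the 20 UMIs required of a measured gene, so the turns cannot be read as differences. Lgr5 turned to -0.16 with 2 times the goblet genes (15 and 18 UMIs). Ifitm3 in Ptger4-OFF turned from above to below other epithelial cells, at -0.87 with a 1% minimum, -0.39 with 2 times the goblet genes and -0.43 without the deepest barcode. Apart from the deepest barcode and the number of genes measured, the cause was not tested. Median log2 OFF/ON over all genes was 0.02, and 0.17 without barcodes over 50000 UMIs. With 27 and 31 barcodes, one barcode can set a gene's sum, and intervals do not cover that.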

Other observations

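In all, 3 barcodes entered the class almost by Itln1 alone. In Ptger4-OFF, 1 had 38 Itln1 UMIs of 39 gate UMIs, with 15 Mmp7, 5 Lgr5 and 8 Mki67 UMIs, and 1 had 9 of 9, with 2 Mmp7 and 2 Lgr5 UMIs. In Ptger4-ON, 1 had 18 of 18, with 26 Mmp7 and 6 Lgr5 UMIs.

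Ifitm3, an interferon-induced membrane protein, had 41 UMIs in Ptger4-OFF, 32 of them in 1 barcode with 0.655% gate UMIs, and 4 in Ptger4-ON. Dmbt1, a mucosal scavenger protein, had 30 UMIs in 7 distinct barcodes in Ptger4-OFF and 2 UMIs in 2 in Ptger4-ON, a ratio of 12.02 [3.05 to 104], and over all barcodes 30 and 10 UMIs, a ratio of 5.44 [2.59 to 12.5]. Pigr, which carries immunoglobulin A across the epithelium, had 2085 CPM in Ptger4-OFF and 1726 CPM in Ptger4-ON distinct barcodes, a ratio of 1.21 [1.00 to 1.46], and over all barcodes the ratio was 1.67 [1.42 to 1.96]. Areg, an EGF family ligand, had 152 CPM in Ptger4-OFF and 343 CPM in Ptger4-ON, a ratio of 0.44 [0.25 to 0.77], against 628 and 1240 CPM in the other epithelial cells, all over distinct barcodes, and over all barcodes the ratio was 0.32 [0.19 to 0.51]. The metallothionein Mt1 had 1390 CPM in Ptger4-OFF and 1238 CPM in Ptger4-ON, below the 3690 and 2147 CPM of other epithelial cells, over distinct barcodes.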
